A study of Homo sapiens with 9 samples.

Results

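The replication-dependent histone genes were 55 of the 19317 genes in the deposited table. They were chosen by name, as clustered genes for the linker histone H1 and the core histones H2A, H2B, H3 and H4, and by a summed count of at least 50 over all 9 samples. That sum does not use the groups. Of 71 genes with such a name, 16 fell below the minimum, and 6 of these had no count in any sample. The member nearest the minimum was H3C12, with a summed count of 61, and the gene nearest below it was H1-1, with 30.

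HepG2, an established human hepatocellular carcinoma cell line, was the source of every sample. The 3 DNL samples were kept for 1 week in DMEM with 10% serum, 1% antibiotics, 10 µg/ml insulin and 10 µM T0901317, a synthetic agonist of the liver X receptors. The 3 OA samples had DMEM with the same serum and antibiotics and were given 25 µM oleic acid, dissolved in 11% bovine serum albumin in PBS, for 6 hours. The 3 WT samples, the untreated controls, were in RPMI with the same serum and antibiotics. These recipes are each sample's own treatment entry; a general protocol entry repeats the DNL recipe for every sample and was not followed. All groups carry the same genotype, labelled WT, and belong to 1 cell line. The labels give no DMEM control and no albumin control. Treatment and medium cannot be told apart in either comparison with WT, nor can oleic acid and albumin in OA against WT; DNL and OA differ in agent, albumin and duration together. Libraries were made from total RNA depleted of ribosomal RNA, without selection for poly(A) tails.

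Replication-dependent histone genes lie in clusters and supply the histones that package newly copied DNA. Their transcripts are mostly made in S phase, have no introns and end in a conserved stem-loop in place of a poly(A) tail. Stem-loop binding protein, SLBP, holds that hairpin during 3′ end processing and translation, and NPAT, a substrate of cyclin E with CDK2, activates transcription at the clusters. Some histone genes also give polyadenylated transcripts that extend past the hairpin.

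The hairpin is shown because it defines these mRNAs. The pattern searched had 16 bases, GG, any 2 bases, CTT, any base, T, any base, AG, any 2 bases and CC. Read on the sense strand after the coding end, it was found in an annotated coding transcript of 24 members (GENCODE release 29, GRCh38). For another 24 members the annotation held at most 3 bases after the coding end, so the hairpin lay outside the annotated transcript. H1-4, H4C3 and H2BC11 had 60, 54 and up to 572 bases there without a match to the pattern. Variant hairpins were not searched for. The form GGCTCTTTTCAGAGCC occurred in 13 members of the H2A, H2B and H3 classes, and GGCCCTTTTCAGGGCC in 4 members, all H4. H3C6 alone had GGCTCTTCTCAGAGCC. Each line below holds 30 bases of the transcript, written as DNA, with the hairpin in capitals. The set spans the 4 core histones and includes 3 genes whose calls departed from the majority, H2BC6 (chr6:26172059-26184655, plus strand), H3C6 (chr6:26224199-26227473, plus strand) and H4C16 (chr12:14767999-14771131, minus strand).
H2AC8: aaccaaaGGCTCTTTTCAGAGCCacccacc
H2BC4: ccccaaaGGCTCTTTTAAGAGCCacccaga
H2BC21: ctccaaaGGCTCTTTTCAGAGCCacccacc
H2BC6: acccaaaGGCTCTTTTCAGAGCCactcacc
H3C10: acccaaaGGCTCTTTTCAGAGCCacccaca
H3C6: atccaaaGGCTCTTCTCAGAGCCaaccact
H4C2: ttccaatGGCCCTTTTCAGGGCCgcccact
H4C8: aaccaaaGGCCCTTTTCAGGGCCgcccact
H4C16: tccaaaaGGCCCTTTTCAGGGCCcccaaac

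Of the 55 members, 41 lie on chromosome 6, 9 on chromosome 1 and 1, H4C16, on chromosome 12 in GENCODE release 29, and 4 (H2AC18, H2AC19, H3C2 and H3C3) were not in that release. A promoter row was found in the RefSeq table (GRCh38.p14) for 51 members. The octamer ATTTGCAT, searched on both strands of the 300 bases around the start, was present in 13 of 16 H2B and 10 of 14 H2A members, in 1 of 9 H3 members and in 0 of 4 H1 and 0 of 8 H4 members. It was present in 1.77% of all promoters in the table. The letters CCAAT, on either strand, were in every H1, H2A, H2B and H3 member with a promoter row and in 0 of 8 H4 members, against 34.6% of all promoters. The 250 bases before the start of H2BC17, H2BC9 and H2BC10 are printed because the H2B class had the most genes that rose in DNL samples. H2BC9 and H2BC10 were picked after their values were seen. They are on the plus strand at chr6:27893175-27893424, chr6:26251364-26251613 and chr6:26272681-26272930, in that order, with the octamer or its reverse complement in capitals.
H2BC17: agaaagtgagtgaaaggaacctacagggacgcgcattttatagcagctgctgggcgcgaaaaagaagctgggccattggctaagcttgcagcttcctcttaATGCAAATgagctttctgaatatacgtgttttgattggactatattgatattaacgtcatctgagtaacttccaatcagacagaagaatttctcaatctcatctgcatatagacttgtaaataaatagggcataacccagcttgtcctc
H2BC9: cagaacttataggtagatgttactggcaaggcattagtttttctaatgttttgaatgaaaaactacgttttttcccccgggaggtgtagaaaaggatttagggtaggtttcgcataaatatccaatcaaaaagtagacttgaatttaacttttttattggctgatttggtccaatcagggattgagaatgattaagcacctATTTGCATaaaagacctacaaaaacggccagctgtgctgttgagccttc
H2BC10: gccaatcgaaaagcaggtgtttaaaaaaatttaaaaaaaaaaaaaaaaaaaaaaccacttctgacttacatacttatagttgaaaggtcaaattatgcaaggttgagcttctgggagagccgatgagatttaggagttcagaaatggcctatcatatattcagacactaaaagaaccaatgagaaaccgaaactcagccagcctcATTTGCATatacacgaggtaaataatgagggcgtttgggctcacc

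The libraries held 7836520 to 43043347 estimated counts, and the shallowest was OA replicate 3. Levels below are counts per 1000000 (CPM) on library sizes scaled by TMM, a method that balances the bulk of genes between libraries. CPM is not divided by transcript length, so levels are compared between samples and not between genes. The edgeR quasi-likelihood fit covered 13636 genes, and a gene counts as risen or fallen where its p, adjusted by Benjamini-Hochberg over all of them, was under 0.05. The hepatocyte marker list summed to 77555 to 79675 CPM in DNL, 14311 to 16321 CPM in OA and 43703 to 45341 CPM in WT samples, with none of its 10 genes at 0. Most of each sum was APOB, at 48473 to 49985 CPM in DNL, 8249.5 to 9625 CPM in OA and 29328 to 30827 CPM in WT samples. Not every gene followed the sum. HNF4A had 465 to 509.5 CPM in DNL and 553 to 579.8 CPM in WT samples, and TTR overlapped between OA and WT samples. The part of these markers in the histone results was not tested. The 7 fibroblast and stellate cell markers summed to 90.5 to 92.6 CPM in DNL, 95.2 to 1039 CPM in OA and 71.0 to 77.0 CPM in WT samples. The OA range came mainly from the collagens: COL1A1 had 19.3, 85.0 and 537 CPM in OA replicates 1, 2 and 3, against at most 0.706 CPM in DNL and 0.99 CPM in WT samples. COL1A2 had 10.2, 41.1 and 259.6 CPM in the OA libraries and 0 in every DNL and WT library. The other markers of the list also rose from OA replicate 1 to 3, but not all lay above WT. COL3A1 had 2.53, 9.36 and 66.9 CPM in OA and at most 0.216 CPM in DNL and 0.023 CPM in WT libraries. LUM had 0, 0.264 and 0.713 CPM in OA and 0 in every DNL and WT library. ACTA2 had 58.5, 80.2 and 164 CPM in OA and 61.4, 62.2 and 60.2 CPM in WT libraries. PDGFRB had 2.37, 4.35 and 7.6 CPM in OA and 9.46, 11.6 and 8.71 CPM in WT libraries. DCN had at most 3.56 CPM in any library. The part of this material in the histone results was not tested. The T and B cell markers CD3E and MS4A1 were at 0 in all 9 samples, the leukocyte sum was carried by LYZ, and the endothelial markers summed to at most 6.92 CPM in any sample.

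Oleic acid samples held more histone mRNA of every class than the WT controls. The 55 members took 0.315%, 0.278% and 0.266% of all counts in the OA samples, against 0.127%, 0.109% and 0.117% in the WT samples. Summed over members, the level was 2911, 2619 and 2473 CPM in OA and 1257, 1059.9 and 1128 CPM in WT samples, a ratio of means of 2.32, and the groups did not overlap. In bulk RNA, more cells that carry histone mRNA and more histone mRNA per cell cannot be told apart.

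By class, the ratio of OA to WT means was 3.48 for H3, 2.68 for H2A, 2.53 for H2B, 1.73 for H4 and 1.59 for the linker histone H1, and in none of the 5 classes did the OA and WT samples overlap. The H3 sum averaged 504 ± 60.6 CPM in OA and 145 ± 10.2 CPM in WT samples (SD, n = 3 each). The H1 sum averaged 323 ± 32.9 CPM in OA and 204 ± 20.3 CPM in WT samples (SD, n = 3 each).

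**Figure D1:**
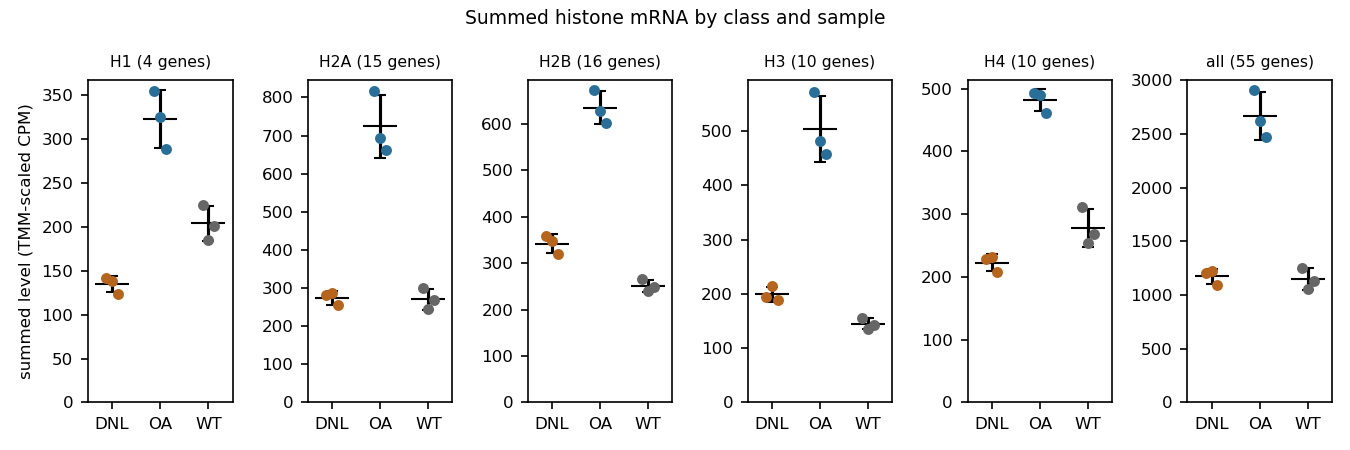
Summed level (TMM-scaled CPM) of each histone class and of all 55 members in the DNL, OA and WT samples; points are samples, horizontal lines are means and bars are SD (n = 3). The 3 OA samples sit above every DNL and WT sample in all 5 classes, while DNL lies below WT for H1 and H4 and above WT for H2B and H3.

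Of 54 members tested, 48 rose in OA against WT and 0 fell; over all genes tested 30.4% rose and 29.7% fell. At an unadjusted edgeR p under 0.05, 1 member (H2BC6) was lower, and DESeq2 and limma-voom called 0 lower. The OA and WT samples did not overlap for 49 members that were higher in OA (32.5% of all genes) and for 1 that was lower (33.2%). At least 2-fold higher with an adjusted p under 0.05 were 41 members, against 8.88% of all genes. The median log2 fold change was 1.56 for the members and -0.03 for all genes tested. H3C12 did not pass the filter on low counts and was not tested. H2BC10, one of the 48, lay under the filter level of 0.378 CPM in 2 of its 3 WT samples, so it passed through the groups where it was higher. Each OA library by itself lay above all 3 WT samples for 50 or 51 of the 54 members. The share of all genes that did so was not computed, so this count has no background beside it. Without OA replicate 3, the shallowest library, 48 members rose and 0 fell.

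All 4 H1 members rose. H1 is the linker histone that binds DNA between nucleosomes. H1-5 had 21.0, 17.7 and 13.3 CPM in OA samples, against 2.49, 2.44 and 2.82 CPM in WT samples, a log2 fold change of 2.75 ± 0.201 (SE; edgeR adjusted p = 1.06e-07). H1-2 had 183, 167 and 153 CPM in OA and 111, 93.4 and 97.7 CPM in WT samples (0.73 ± 0.0908). The H1-4 log2 fold change was 0.45 ± 0.0869 (edgeR adjusted p = 0.000782). The OA and WT values did not overlap for any of these genes.

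Of the H2A members, which pair with H2B in the nucleosome, 14 of 15 rose. H2AC8 had 114, 100.1 and 94.4 CPM in OA samples, against 28.9, 23.0 and 23.0 CPM in WT samples (log2 fold change 2.04 ± 0.139, edgeR adjusted p = 4.82e-07). H2AC20 had 60.6, 57.9 and 53.6 CPM in OA and 27.2, 22.9 and 26.8 CPM in WT samples (1.16 ± 0.0877). H2AC18, at chr1:149842218-149842750, had 186, 202 and 201 CPM in OA samples and 92.7, 79.3 and 75.9 CPM in WT samples (1.25 ± 0.0709). Every OA value of these genes lay above every WT value. H2AC19, a near copy of H2AC18, was the member of this class that was not called, with 66.3, 3.72 and 7.84 CPM in OA samples and 2.49, 2.84 and 16 CPM in WT samples, which overlap.

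Of the H2B members 15 of 16 rose. H2BC4 had 166, 157 and 154 CPM in OA samples, against 71.8, 71.4 and 67.5 CPM in WT samples (log2 fold change 1.18 ± 0.0623, edgeR adjusted p = 5.19e-09). H2BC17 had 76.3, 66.8 and 65.8 CPM in OA and 19.5, 17.9 and 21.3 CPM in WT samples (1.83 ± 0.0827, edgeR adjusted p = 1.26e-09). The groups were far apart for both. H2BC6 went against its class, with 3.16, 3.26 and 2.85 CPM in OA samples and 3.64, 4.06 and 5.12 CPM in WT samples, every OA sample below every WT sample; its log2 fold change of -0.45 ± 0.207 did not pass the test (edgeR adjusted p = 0.0778).

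Of the 9 H3 members tested 7 rose. H3C4, at chr6:26196840-26197250 on the minus strand, had 115, 111 and 110.1 CPM in OA samples, against 16.3, 15.1 and 14.9 CPM in WT samples. Its log2 fold change of 2.86 ± 0.0672 had the smallest adjusted p of all members (edgeR, 4.95e-12), and the OA values were close to one another. H3C10 had 111, 103 and 102 CPM in OA and 32.8, 25.8 and 27.3 CPM in WT samples (1.88 ± 0.0913). H3C7, with 10.8, 9.46 and 8.31 CPM in OA and 1.54, 1.39 and 1.35 CPM in WT samples, had a log2 fold change of 2.73 ± 0.191. H3C2 had 167, 124 and 112 CPM in OA and 47.2, 40.9 and 40.6 CPM in WT samples (1.64 ± 0.156). OA lay above WT in every sample of these 4 genes. H3C6 overlapped between groups, with 13.4, 8.93 and 11.6 CPM in OA and 10.6, 13.6 and 11.2 CPM in WT samples (-0.08 ± 0.153, edgeR adjusted p = 0.661). H3C4 made up 22.4% ± 2.06 of the H3 sum in OA and 10.6% ± 0.364 in WT samples, while H3C6 made up 2.25% ± 0.353 in OA and 8.23% ± 1.61 in WT samples (SD, n = 3 each).

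Of the H4 members, which form the central tetramer with H3, 8 of 10 rose. H4C4 had 40.7, 30.6 and 30.8 CPM in OA samples, against 9.41, 7.38 and 8.12 CPM in WT samples (log2 fold change 2.03 ± 0.137, edgeR adjusted p = 5.32e-08). H4C2 had 70.5, 78.3 and 75.1 CPM in OA and 27.2, 22.6 and 29.2 CPM in WT samples (1.5 ± 0.129). H4C12 had the smallest called change of the class, 153, 147 and 134 CPM in OA and 122, 97.8 and 100 CPM in WT samples (0.44 ± 0.101, edgeR adjusted p = 0.00315). The groups did not overlap for any of the 3. H4C3 overlapped, with 67.3, 74.2 and 72.6 CPM in OA and 68.8, 57.3 and 61.5 CPM in WT samples (0.19 ± 0.0836, edgeR adjusted p = 0.0673), and it passed under other settings, with an adjusted p of 0.0156 on library totals. H4C16 had 14.1, 14.8 and 15.6 CPM in OA and 12.7, 12.4 and 11.5 CPM in WT samples; these did not overlap, but the change missed the threshold (0.28 ± 0.132, edgeR adjusted p = 0.089), and passed on library totals (0.043).

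**Figure D2:**
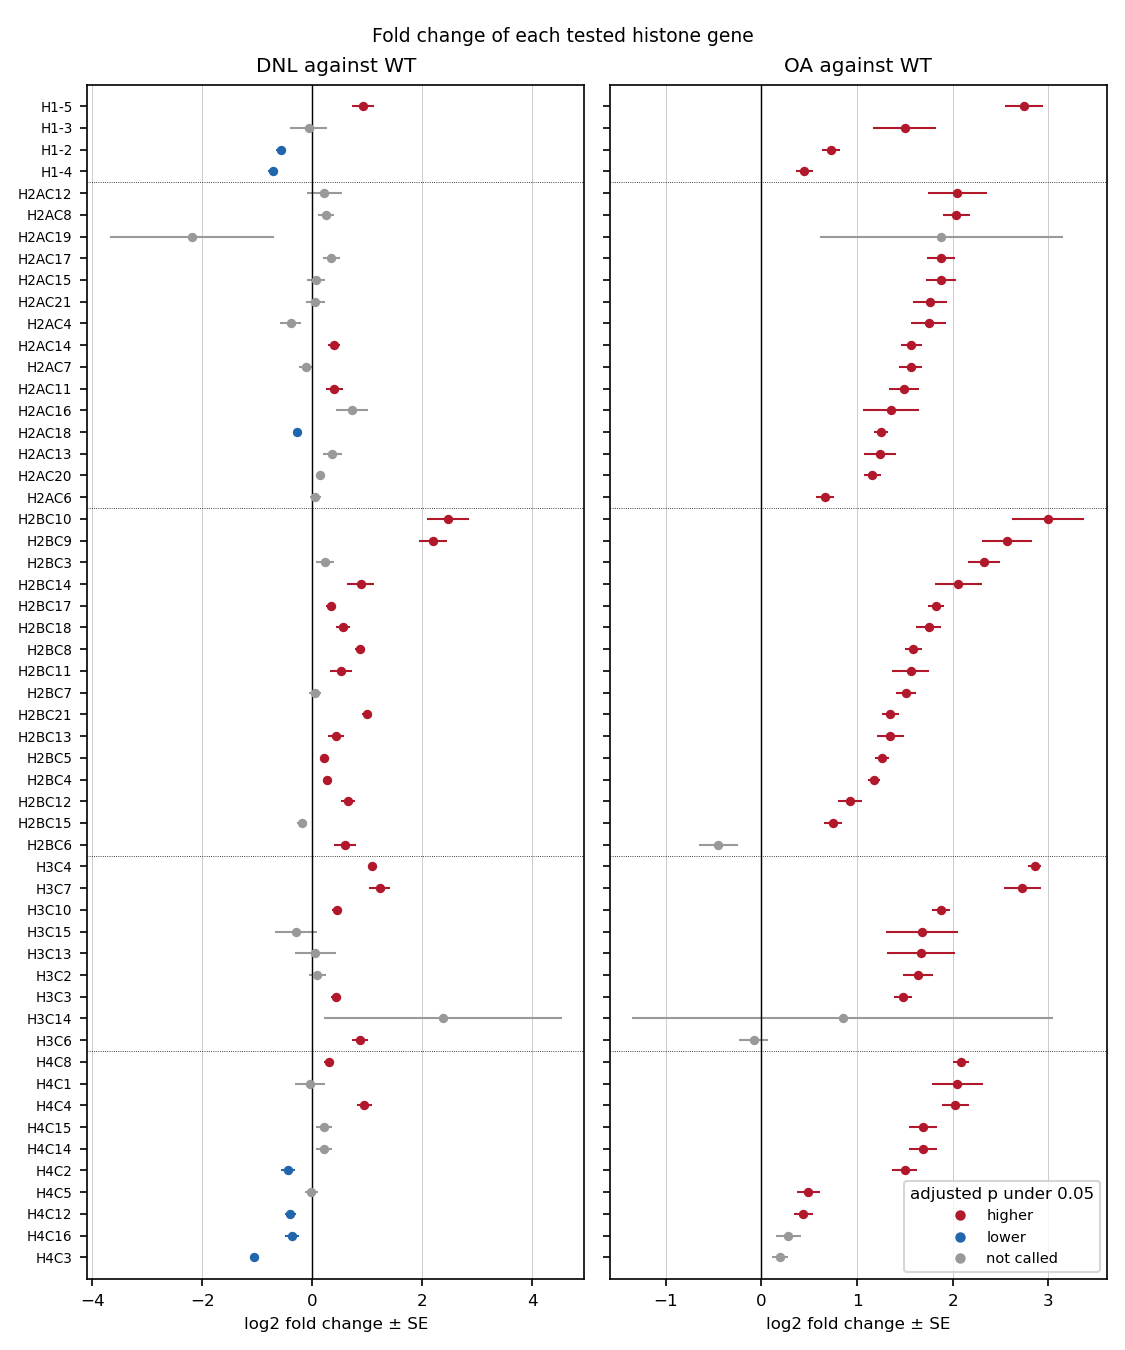
Log2 fold change with its standard error for the 54 tested histone genes, DNL against WT on the left and OA against WT on the right, grouped by class with H1 at the top; red marks genes that rose, blue those that fell and grey those not called. In OA 48 genes are red and none is blue, while in DNL 23 are red and 7 blue.

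DNL samples differed from WT class by class, with no rise of the whole family. The 55 members took 0.109%, 0.112% and 0.101% of counts in DNL samples, against 0.127%, 0.109% and 0.117% in WT samples. The summed level was 1208, 1222 and 1094 CPM in DNL and 1257, 1059.9 and 1128 CPM in WT samples, which overlap. The DNL to WT ratio was 1.38 for H3 and 1.36 for H2B, 1.02 for H2A (0.03 on the log2 scale, but -0.14 on library totals), 0.801 for H4 and 0.662 for H1, and DNL and WT samples overlapped for H2A alone. DNL and OA share their WT samples, so these ratios are given beside those of OA and not correlated with them.

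Of the 54 members tested, 23 rose in DNL against WT and 7 fell, while 27.1% of all genes tested rose and 26.8% fell. The median log2 fold change was 0.24 for members and -0.02 for all genes. A rise of at least 2-fold was called in 4 members (7.21% of all genes) and a fall of that size in 1 (5.07%), shares near the background. H2BC10, counted in both the 23 and the 4, passed the filter on low counts only through the groups where it was higher. Scaling by library totals in place of TMM moved the median of all genes by -0.16, to -0.18, with 2505 genes higher and 5265 lower against 3692 and 3650 under TMM. On that scale 14 members rose and 9 fell, and their median was 0.07.

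The rises lay mostly in H2B and H3. In H2B 13 of 16 rose, H2BC10 among them, and 0 fell. In H3 5 of 9 rose and 0 fell. At an unadjusted edgeR p, and by DESeq2 and limma-voom, 0 fell in either class. On library totals 7 H2B members rose and 1 fell, and 5 H3 members rose and 0 fell. H2BC21 had 75.6, 74.5 and 65.5 CPM in DNL samples, against 40.2, 35.0 and 33.2 CPM in WT samples (log2 fold change 0.99 ± 0.0865, edgeR adjusted p = 7.97e-07). H2BC8 had 25.4, 23.1 and 22.9 CPM in DNL and 14.1, 11.9 and 12.9 CPM in WT samples (0.87 ± 0.0861). H3C4 had 32.0, 34.9 and 31.0 CPM in DNL samples, against 16.3, 15.1 and 14.9 CPM in WT samples (1.08 ± 0.0666, edgeR adjusted p = 2.77e-08). The groups did not overlap in any of these genes, and H2BC21 made up 21.0% ± 0.466 of the H2B sum in DNL and 14.4% ± 0.924 in WT samples (SD, n = 3 each).

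Members of the H1, H3 and H4 classes also rose. H4C4 had 14.3, 16.9 and 17.3 CPM in DNL samples, against 9.41, 7.38 and 8.12 CPM in WT samples (log2 fold change 0.95 ± 0.137, edgeR adjusted p = 6.52e-05). H1-5 had 5.85, 4.92 and 3.95 CPM in DNL and 2.49, 2.44 and 2.82 CPM in WT samples (0.93 ± 0.201). H3C7 had 3.14, 3.46 and 3.49 CPM in DNL and 1.54, 1.39 and 1.35 CPM in WT samples (1.23 ± 0.19). In all 3 genes every DNL sample lay above every WT sample. H3C10 (0.46 ± 0.0911), H2BC17 (0.34 ± 0.083), H4C8 (0.31 ± 0.0866) and H2BC4 (0.27 ± 0.0619) rose by less, and of these H2BC17, H4C8 and H2BC4 did not pass on library totals (adjusted p = 0.0974, 0.162 and 0.158). H3C2, with 44.0, 53.3 and 40.8 CPM in DNL and 47.2, 40.9 and 40.6 CPM in WT samples, overlapped (0.09 ± 0.156, edgeR adjusted p = 0.647).

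H2BC10 and H2BC9, picked after their values were seen, are both of low level. H2BC10 had 1.60, 2.33 and 1.66 CPM in DNL and 0.46, 0.169 and 0.329 CPM in WT samples; it passed the filter through the DNL and OA samples, so its difference is a description. H2BC9 had 3.14, 3.79 and 3.20 CPM in DNL and 0.622, 0.88 and 0.695 CPM in WT samples (log2 fold change 2.20 ± 0.256). DNL lay above WT in every sample of both genes, at levels where few counts stand behind each WT value. Among H2B members with the octamer, 11 of 13 rose in DNL, H2BC10 among them, and of the 3 without it, 2 rose. Among H2A members 2 of 10 with the octamer rose and 0 fell, and of the 4 without it, 0 rose and 1 fell. The shares of all genes tested were 27.1% risen and 26.8% fallen. A link between the octamer and the rises was not tested.

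H2BC6 and H3C6, which were not called in OA, rose in DNL. H3C6 had 19.6, 23.0 and 22.4 CPM in DNL samples, against 10.6, 13.6 and 11.2 CPM in WT samples (log2 fold change 0.87 ± 0.144, edgeR adjusted p = 0.000212). H2BC6 had 5.57, 6.05 and 7.73 CPM in DNL and 3.64, 4.06 and 5.12 CPM in WT samples (0.60 ± 0.195, edgeR adjusted p = 0.0203). DNL lay above WT in every sample of both genes. The H2BC6 call was lost without DNL replicate 3 (adjusted p = 0.104), without WT replicate 1 (0.0806), without WT replicate 2 (0.065) and on library totals (0.0837).

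The 7 genes that fell were H1-2, H1-4, H2AC18, H4C2, H4C3, H4C12 and H4C16. H4C3 had 27.9, 33.9 and 29.6 CPM in DNL samples, against 68.8, 57.3 and 61.5 CPM in WT samples (log2 fold change -1.05 ± 0.0857, edgeR adjusted p = 3.94e-07). H1-2 had 74.1, 69.7 and 60.3 CPM in DNL and 111, 93.4 and 97.7 CPM in WT samples (-0.57 ± 0.0917). H1-4 had 61.1, 62.8 and 58.7 CPM in DNL and 110.4, 88.2 and 98.8 CPM in WT samples (-0.71 ± 0.0879). Every DNL value of these 3 genes lay below every WT value. H4C12 had 91.1, 77.5 and 74.1 CPM in DNL and 122, 97.8 and 100 CPM in WT samples (-0.40 ± 0.101, edgeR adjusted p = 0.00663). H2AC18 fell by 0.27 ± 0.0712 on the log2 scale. H4C2 (-0.44 ± 0.133) and H4C16 (-0.37 ± 0.132) were called in the full fit, and each call was lost without any 1 of 4 libraries.

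The libraries whose removal ended the H4C2 call were DNL replicate 1 (edgeR adjusted p = 0.0811), DNL replicate 3 (0.0634), WT replicate 1 (0.0588) and WT replicate 3 (0.0615). For H4C16 they were DNL replicate 1 (0.171), DNL replicate 2 (0.0556), WT replicate 1 (0.109) and WT replicate 2 (0.0784). In the H2A class 12 of 15 members were not called in DNL. H2AC14 rose, with 29.9, 31.2 and 26.5 CPM in DNL and 24.7, 19.2 and 22.1 CPM in WT samples (0.40 ± 0.114, edgeR adjusted p = 0.0104), and did not pass on library totals (0.0887). H2AC7, at 19.2, 17.6 and 15 CPM in DNL and 20.5, 17.2 and 17.9 CPM in WT samples, overlapped.

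**Figure D3:**
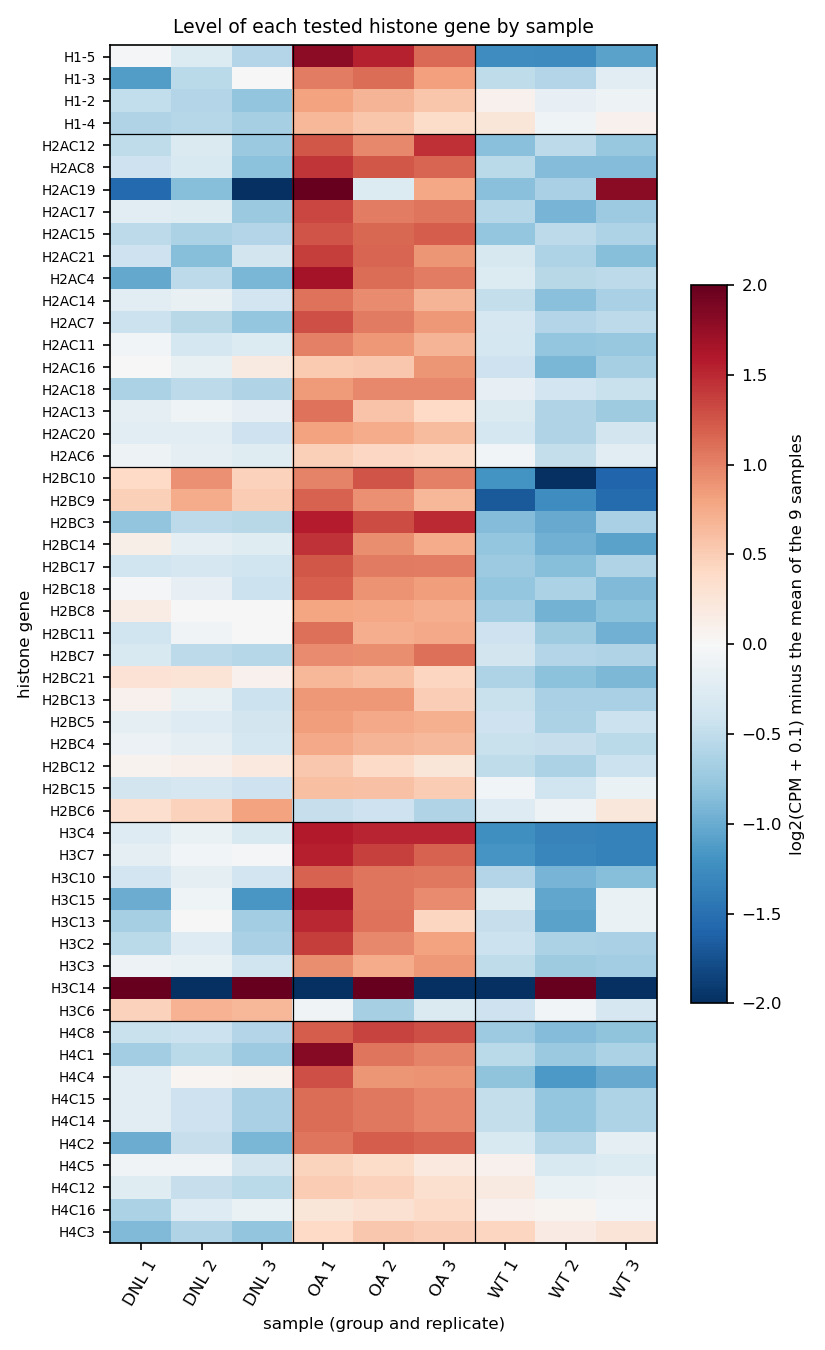
Level of each tested histone gene in each sample as log2(CPM + 0.1) minus its mean over the 9 samples, in the DNL, OA and WT samples from left to right and by class from H1 at the top to H4 at the bottom. The OA columns are red for nearly all genes; H2BC6 and H3C6 are highest in DNL, and H2AC19 and H3C14 vary between samples of one group.

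Set directly against OA, DNL samples were lower for nearly all members. Of 54 tested, 46 fell and 2 rose, where 30.9% of all genes tested fell and 31.9% rose, and 36 were at least 2-fold lower (9.94% of all genes). The median log2 fold change was -1.21 for members and 0.01 for all genes. On library totals 50 members fell and 2 rose, while the median of all genes moved by -0.23, to -0.22, with 2958 genes higher and 5773 lower against 4349 and 4208 under TMM. The summed level was 1208, 1222 and 1094 CPM in DNL and 2911, 2619 and 2473 CPM in OA samples, a ratio of means of 0.44.

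H4C8 had 13.6, 13.7 and 12.4 CPM in DNL samples, against 43.2, 47.6 and 45.5 CPM in OA samples (log2 fold change -1.78 ± 0.0858, edgeR adjusted p = 1.34e-09). H3C4 had a log2 fold change of -1.79 ± 0.0644 and H2AC18 one of -1.52 ± 0.0723. H2BC21, at -0.36 ± 0.0859 (edgeR adjusted p = 0.00254), had the smallest called fall, and H2BC9, H2BC10, H2BC12 and H2AC16 were not called. The 2 genes that rose were H3C6 (0.96 ± 0.152, edgeR adjusted p = 0.000111) and H2BC6 (1.05 ± 0.208, edgeR adjusted p = 0.000655). Ranked by group means, 36 members ran OA, DNL, WT from high to low, 15 ran OA, WT, DNL, 2 ran DNL, WT, OA and 1 ran DNL, OA, WT. This ranking takes no account of spread or calls, and 24 members were not called in DNL against WT. The shares of these orders over all genes were not computed.

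By position, with RefSeq coordinates for the 4 members not in GENCODE release 29, 23 of 26 tested members at chr6:26021679-26285638 rose in OA, as did 4 of 4 at chr6:27125897-27147515, 12 of 12 at chr6:27807444-27893843 and 9 of 11 on chromosome 1; differences between clusters were not tested. H4C16, the member on chromosome 12, was not called. The shares of all genes tested were 30.4% risen in OA, and 27.1% risen and 26.8% fallen in DNL. Of the members with over 100 bases annotated past the hairpin, 15 of 19 rose in OA, and 10 of 19 rose and 1 fell in DNL. Of the 26 whose annotated transcripts held no match to the hairpin pattern, 25 rose in OA, and 10 rose and 4 fell in DNL. Those 26 include H1-4, H4C3 and H2BC11, whose annotation extends past the coding end, so a variant hairpin there is not excluded. The 4 members not in that release were not searched. Counts of a gene do not separate hairpin-ended from longer transcripts.

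For 3 pairs of near-identical genes the division of reads is uncertain. H4C14 and H4C15 had equal counts within 0.01 in all 9 samples and are 1 measurement listed under both names. H3C14 and H3C15 have an identical annotated transcript of 1656 bases, and H3C14 was listed at 0 in DNL replicate 2, OA replicates 1 and 3 and WT replicates 1 and 3. Summed, H3C14 with H3C15 had 90.9, 69.5 and 55.8 CPM in OA and 24.5, 19.9 and 26.2 CPM in WT samples (log2 fold change 1.62 ± 0.161, edgeR adjusted p = 1.23e-05), and 28.0 ± 0.975 CPM in DNL samples (SD, n = 3; 0.25 ± 0.162 against WT, adjusted p = 0.219). H2AC18 with H2AC19 summed to 253, 206 and 209 CPM in OA and 95.2, 82.1 and 91.8 CPM in WT samples (1.31 ± 0.0818). The sums were higher in each OA sample than in any WT sample. With the 3 pairs summed, 47 rows rose and 0 fell in OA.

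**Figure D4:**
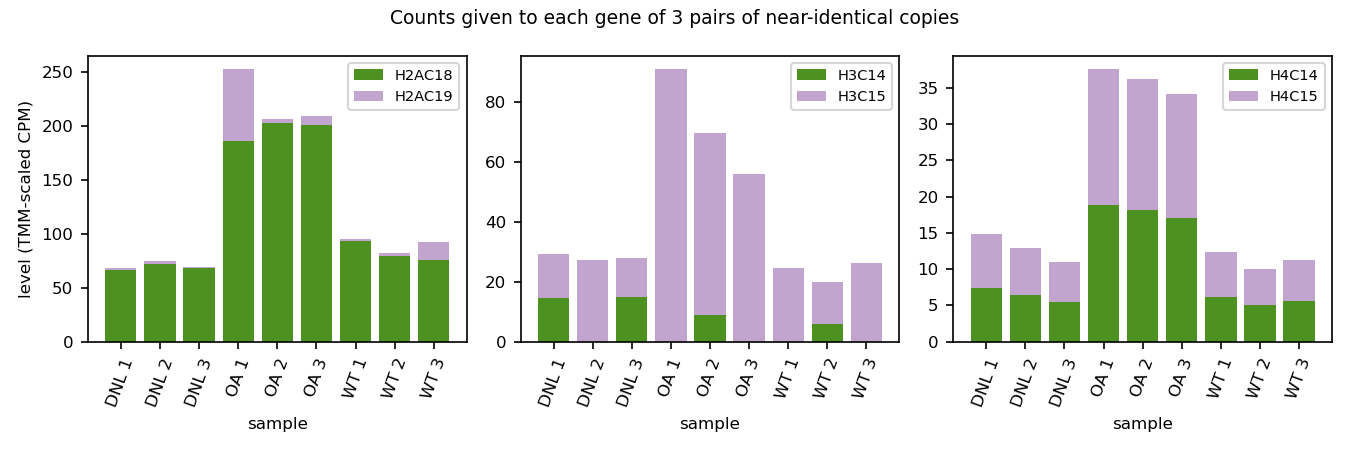
Level (TMM-scaled CPM) given to each gene of 3 pairs of near-identical copies in the DNL, OA and WT samples, stacked so that the bar height is the pair's sum. H4C14 and H4C15 are split evenly in every sample, H3C14 is at 0 in 5 samples, and the sums are highest in OA for each pair.

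Genes that work with the histone genes were set beside them from lists chosen with earlier results known. The factors for histone gene transcription and 3′ end processing moved both ways in OA against WT: of 24 tested, 13 rose and 6 fell, with a median log2 fold change of 0.30, where 30.4% of all genes tested rose and 29.7% fell. SLBP had 56.5, 58.6 and 64.0 CPM in OA samples, against 32.8, 28.9 and 32.9 CPM in WT samples (0.92 ± 0.0768, edgeR adjusted p = 3.76e-07). NPAT had 54.2, 57.7 and 62.6 CPM in OA and 38.4, 38.2 and 36.8 CPM in WT samples (0.62 ± 0.0834). OA lay above WT in every sample of both genes. CPSF2, a subunit of the cleavage complex, fell to 77.9 ± 1.02 CPM in OA samples, against 151 ± 6.64 CPM in WT samples (SD, n = 3 each; -0.95 ± 0.0474, edgeR adjusted p = 3.03e-09). In DNL 8 rose and 6 fell, shares near the 27.1% and 26.8% of all genes tested; SLBP had 43.2, 44.2 and 39.3 CPM (0.42 ± 0.076 against WT) and NPAT 48.8, 48.1 and 59.0 CPM (0.46 ± 0.0821 against WT).

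Of 34 DNA replication genes, 26 rose and 0 fell in OA against WT (median log2 fold change 1.02). Over all genes tested 30.4% rose and 29.7% fell. At an unadjusted edgeR p, and by DESeq2 and limma-voom, 0 of the 34 fell. In DNL 19 rose and 2 fell (0.48), against 27.1% and 26.8% of all genes tested. CDC6, which loads the replicative helicase, had 90.3, 92.7 and 92.2 CPM in OA samples, against 26.2, 24.3 and 26.5 CPM in WT samples (1.84 ± 0.0647, edgeR adjusted p = 1.35e-10), and fell to 18, 19 and 20.2 CPM in DNL samples (-0.43 ± 0.0667 against WT). TK1, which makes thymidine monophosphate, rose in both, by 2.40 ± 0.114 in OA and 1.55 ± 0.113 in DNL on the log2 scale. PCNA, the sliding clamp, had 139.8, 137 and 136 CPM in DNL and 170.1, 142 and 139 CPM in OA samples, against 71.7, 70.8 and 68.8 CPM in WT samples. Whether a different share of cells in S phase accompanies the histone levels was not tested.

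Of 23 histone chaperone and import genes, 17 rose and 3 fell in OA against WT (median 0.28), and 6 rose and 8 fell in DNL (-0.07). HJURP, the chaperone of the centromeric H3 variant, had 31.0, 29.7 and 33.1 CPM in OA and 12.5, 13.5 and 13.4 CPM in WT samples (1.25 ± 0.0943, edgeR adjusted p = 1.44e-07). NAP1L1, one of the 3 that fell, had 223, 222 and 211 CPM in OA and 314, 290.4 and 294 CPM in WT samples (-0.45 ± 0.0426, edgeR adjusted p = 1.13e-06). Of 11 replication-independent variants tested, which are made outside S phase as well, 4 rose and 2 fell in OA (median 0.01). In DNL 2 of these variants rose and 7 fell (-0.32). Over all genes tested 30.4% rose and 29.7% fell in OA, and 27.1% rose and 26.8% fell in DNL. The chaperone and import rises in DNL and the variant rises in OA were near those shares. H2AX, which is phosphorylated at DNA breaks, rose to 81.9, 70.1 and 69.6 CPM in OA samples, against 45.9, 35.1 and 47.4 CPM in WT samples (0.79 ± 0.112), and fell to 25.4, 28.1 and 23.8 CPM in DNL samples (-0.74 ± 0.115 against WT). MACROH2A2, one of the 2 variants that fell in OA, had 18.7, 17.4 and 19.2 CPM there and 44.2, 38.3 and 39.6 CPM in WT samples (-1.15 ± 0.0862, edgeR adjusted p = 1.31e-07).

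**Figure D5:**
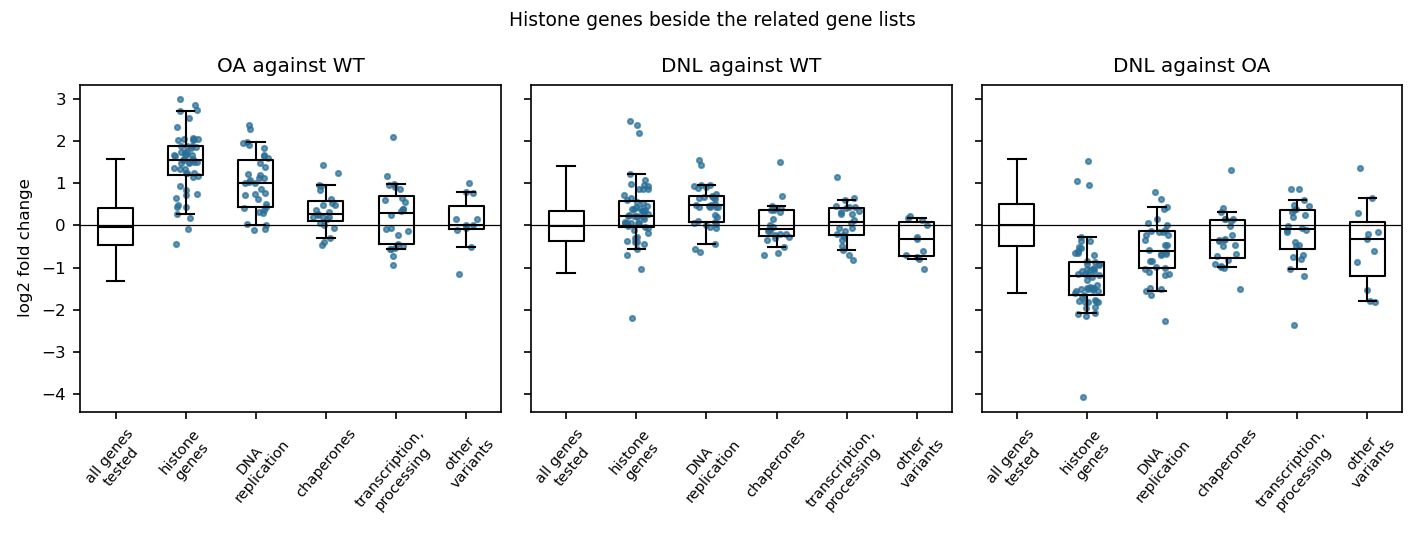
Log2 fold changes of all genes tested, of the 54 histone genes and of 4 related gene lists in each comparison; boxes span the quartiles with the median, whiskers the 5th to 95th percentile, and points are genes of a list. The histone genes have a median of 1.56 in OA against WT, 0.24 in DNL against WT and -1.21 in DNL against OA.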

How the data were processed

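RNA from 9 HepG2 samples was analysed, 3 each of the DNL, OA and WT groups. The authors deposited a table of estimated counts per Ensembl gene; per the submitters' processing notes it was made with FastQC 0.11.9, kallisto 0.48.0 and GRCh38. The annotation release and the strand setting were not given in these sources. Symbols were matched for 19316 of 19317 genes. Counts were rounded to whole numbers, filtered with filterByExpr, scaled by TMM and tested with edgeR 4.0.16 (R 4.3.3) in 1 robust quasi-likelihood fit over all 9 samples, with Benjamini-Hochberg adjustment over 13636 genes. Standard errors are the log2 fold change divided by the root of the F statistic. The fit was tested on simulated data for OA against WT with 13207 genes. It recovered 65.4% of those changed by 1.5-fold and 78.2% of those changed by 2-fold, and 6.55% of its calls were false. The simulation changed only 81, 55 and 64 genes by 1.5, 2 and 4-fold, where the real fit called 4139 higher and 4049 lower. Its shares are therefore not error rates of the real calls. DESeq2 1.42.0, limma 3.58.1, other scalings, a replicate block, no filter, 2-group fits, each sample left out, summed copies and other count minimums were the alternatives. Totals of 7836520 to 43043347 counts give floors (3 counts) of 0.356 to 0.0691 CPM, which cover counting error only. The labels do not say whether replicates came from different cultures: the p-values rest on sample-to-sample spread that may be only technical; replicate pairs differed by more than sampling noise (chi-square per degree of freedom 5.44 to 16.6). Members and lists were chosen with earlier results of these data known. Genes named were, per class, the 2 of highest mean CPM, the 2 lowest adjusted p in every comparison, and any called against the majority; in each list, examples among the 2 lowest adjusted p per direction and comparison, plus SLBP and NPAT.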

Additional observations from a re-analysis of the deposited data

How the results depend on the processing

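All 48 rises in OA against WT, and the 46 falls and 2 rises in DNL against OA, were called under each of 16 alternatives that kept near-identical copies apart; of DNL against WT, 14 of 23 rises and 5 of 7 falls were. On library totals 14 members rose in DNL against WT in place of 23, 0 in place of 2 replication-independent variants rose there, and 3 in place of 6 transcription and processing genes rose in DNL against OA. That scaling lowers every DNL level relative to TMM by construction: the log2 ratio of class sums in DNL against WT became -0.76 for H1, -0.14 for H2A, 0.28 for H2B, 0.30 for H3, -0.49 for H4 and -0.13 for all members, where H2A and all members were 0.03 under TMM. In DNL against OA it became -1.50, -1.63, -1.13, -1.57, -1.35 and -1.42 in the same order. With no filter 1 variant rose in DNL against WT, and leaving out single libraries gave 0 to 3; the same removals gave 2 to 5 chaperone and import genes higher in DNL against OA, and 5 was reached without WT replicate 3. The cause was not tested. With the replicate number as a block, 26 members rose in DNL against WT and 48 in OA. Same-numbered samples deviated together with r of -0.0176 to 0.0534, and 6 of 9 samples correlated best with their own number. These small correlations do not settle whether the numbers pair samples. The call of H2AC8 in DNL against WT appeared with the block (adjusted p = 0.0452). OA replicate 3, at 7836520 counts, limits the precision of low genes most.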

Other observations

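Of the 16 clustered histone genes below the count minimum, H1-6, a linker histone of the testis, had its highest count, 17, in OA replicate 2, and at most 3 in any other sample. H2BC26 had an estimated count of 12.95 in OA replicate 2 and 0 elsewhere, and H2AC25 had 6 counts in OA replicate 1 and 0 elsewhere. H3-4, a testis H3, had no count in any of the 9 samples. These counts are too low for a comparison between groups.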
